A study of Mus musculus with 20 samples.

Results

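Eif4a2, a gene of mouse chromosome 16, and 4 small RNA genes that lie in its introns, Gm24201, Snora81, Gm26447 and Gm24616, were followed in RNA-seq libraries of cultured motoneurons. They are 5 of the 39174 genes in the files and were found by their symbols. They were selected on these same libraries, because Gm26447 was listed at 0 in nearly all knockdown libraries and Eif4a2 was lower there. Levels in knockdown against control libraries are therefore given as a description without a test. Among these genes only Eif4a2 was tested, between compartments.

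The cells were motoneurons from the spinal cord of CD-1 mouse embryos (E12.5), enriched by panning on an antibody against p75 and grown in microfluidic chambers that keep axons apart from cell bodies and dendrites. Control motoneurons, titled GFP, carried an empty lentiviral expression vector and Tdp-43 knockdown motoneurons a lentiviral shRNA against Tdp-43. Total RNA of each compartment was reverse-transcribed and amplified by PCR. There were 4 libraries each of control somatodendritic and control axonal RNA, and 6 each of the knockdown. The control libraries had been described in an earlier study, and control and knockdown motoneurons are stated to have been processed in parallel. The labels do not say whether replicates of a group came from separate cultures, so that p-values measure the spread between these libraries.

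Eif4a2 encodes eukaryotic initiation factor 4A-II, an RNA helicase of the eIF4F complex that unwinds mRNA for ribosome scanning. It has a close paralog, Eif4a1, and both genes carry small nucleolar RNAs (snoRNAs) in their introns. Most intronic snoRNAs of mammals are not transcribed on their own: the intron is spliced out, debranched and trimmed from both ends until proteins bound to the snoRNA stop the exonuclease. Host mRNA and snoRNA thus begin in 1 transcript and afterwards differ in stability and in place, since snoRNAs of the box H/ACA class act with dyskerin in the nucleolus to guide pseudouridylation of rRNA, whereas the mRNA goes to the cytoplasm.

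Eif4a2 (ENSMUSG00000022884) spans chr16:23107444-23114136 of GRCm38 on the + strand. In GENCODE M21, transcript Eif4a2-201 has 10 introns. Gm24201 (ENSMUSG00000064880) lies in intron 6 at chr16:23110383-23110507, Snora81 (ENSMUSG00000087935) in intron 7 at chr16:23110756-23110933, Gm26447 (ENSMUSG00000064382) in intron 8 at chr16:23111301-23111429 and Gm24616 (ENSMUSG00000065208) in intron 9 at chr16:23111617-23111755. All of them have the strand of the host and are annotated as snoRNA genes. Another snoRNA gene, Snord2 of intron 3, was listed at 0 in all 20 libraries and was not among the genes selected. None of these genes overlaps an exon of a protein-coding transcript of Eif4a2, but each overlaps 1 to 3 of its transcripts with a retained intron. Reads of a free snoRNA and of an unspliced or intron-retaining host RNA cannot be told apart in such values.

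**Figure D1:**
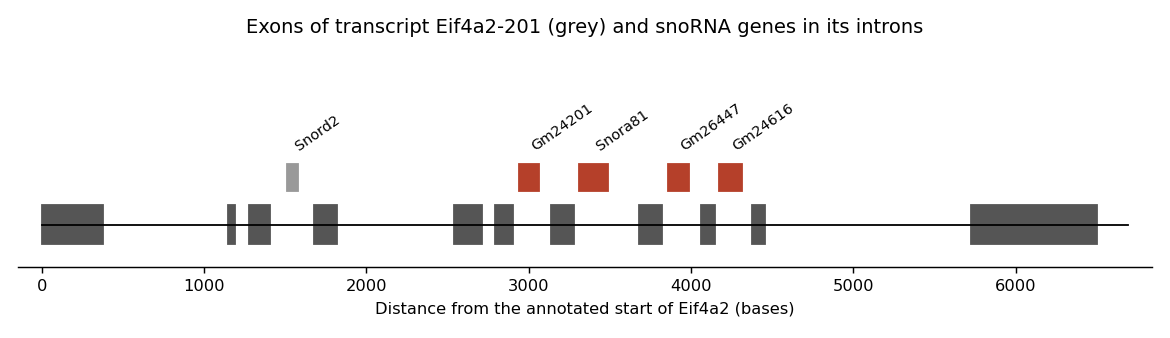
Map of Eif4a2 from its annotated start, in bases, with the exons of transcript Eif4a2-201 as dark boxes and the snoRNA genes above them, those described here in red and Snord2 in grey. Gm24201, Snora81, Gm26447 and Gm24616 sit in the neighbouring introns 6 to 9.

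The RNAs that the results turn on are shown from the GENCODE M21 transcripts, 5′ to 3′, first Gm26447, the most abundant of the 4, and Gm24201, which resembles it, with the runs of at least 8 bases that both share in capitals.
Gm26447: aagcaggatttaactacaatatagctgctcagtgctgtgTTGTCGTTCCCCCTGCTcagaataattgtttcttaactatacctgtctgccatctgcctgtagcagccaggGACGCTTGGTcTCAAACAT
Gm24201: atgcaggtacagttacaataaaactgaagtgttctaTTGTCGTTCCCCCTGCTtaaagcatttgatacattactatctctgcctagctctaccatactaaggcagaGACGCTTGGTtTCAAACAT
Gm26447 (129 bases) and Gm24201 (125 bases) were identical in 94 of 132 aligned columns (71.2%), and their longest shared run had 17 bases. The other pairs among the 4 RNAs were identical in 45.0% to 51.7% of the columns, and Gm24616 and Snora81 are shown with the letters ACA in capitals where they stand within the last 6 bases.
Gm24616: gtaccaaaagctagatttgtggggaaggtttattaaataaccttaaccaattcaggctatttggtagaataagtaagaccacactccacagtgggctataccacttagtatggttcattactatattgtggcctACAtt
Snora81: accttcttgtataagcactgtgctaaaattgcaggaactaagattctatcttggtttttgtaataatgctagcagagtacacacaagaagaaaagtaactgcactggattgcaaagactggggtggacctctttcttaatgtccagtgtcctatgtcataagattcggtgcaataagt
The ACA letters close to the 3′ end, a mark of box H/ACA snoRNAs, were found in Gm26447, Gm24201 and Gm24616 and not in the annotated Snora81. Of 981 annotated mouse snoRNAs of 110 to 200 bases, 616 (62.8%) had them.

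The values are FPKM with a 95% interval for each gene, from which a relative depth of each library and an implied number of fragments per gene were derived. The relative depth, set to 1 in the deepest library, was 0.612 to 1 in control somatodendritic, 0.530 to 0.675 in control axonal, 0.144 to 0.698 in knockdown somatodendritic and 0.103 to 0.761 in knockdown axonal libraries. Tardbp, which encodes Tdp-43, was at 19.0 to 30.8 FPKM in control and 0 to 8.54 FPKM in knockdown somatodendritic libraries. In the axonal compartment it was at 13.4 to 32.3 FPKM in control libraries and at 1.21 to 14 FPKM in 5 knockdown libraries, whereas the library labelled axonal knockdown replicate 1 held 33.2 FPKM, above every control. These are deposited values. After scaling of the 20 libraries that library held 26.9 FPKM, within the 17.6 to 48.4 FPKM of the control axonal libraries. Of 8 motoneuron markers 7 were in the files, and their summed FPKM was at most 24.8 in any library, with Chat, Mnx1 and Isl2 listed at 0 in all 20. Markers of astrocytes and progenitors summed to 27.9 to 559 FPKM.

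Gm26447 was present in every control somatodendritic library, below its host in replicate 1 and above it in replicates 2 to 4, and was listed at 0 in these cells upon knockdown. Its level in control somatodendritic libraries 1 to 4 was 41.5, 81.2, 131 and 142 FPKM (mean 98.9 ± 46.5 SD, n = 4), the third-highest mean among 1556 snoRNA genes. In all 6 knockdown somatodendritic libraries it was listed at 0. The groups did not overlap, as held for 1.96% of the 13762 genes tested in that compartment, whose knockdown libraries all lay below the controls. The control values rested on 2.23, 3.94, 10.6 and 8.96 implied fragments, so that even this RNA was seen in few fragments per library.

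In axons Gm26447 was uneven among the controls. Control axonal libraries 1 to 4 had 85.4, 0, 11.9 and 101 FPKM (mean 49.7 ± 51.1 SD, n = 4), from 3.81, 0, 0.386 and 4.16 implied fragments. Knockdown axonal replicate 1 had 14.1 FPKM, from 0.458 implied fragments, and the other 5 knockdown libraries were listed at 0. Control and knockdown axonal libraries therefore overlapped, at 0 in control replicate 2 and above 0 in knockdown replicate 1. In the latter library Tardbp was above every control axonal library as deposited and within their range after scaling.

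**Figure D2:**
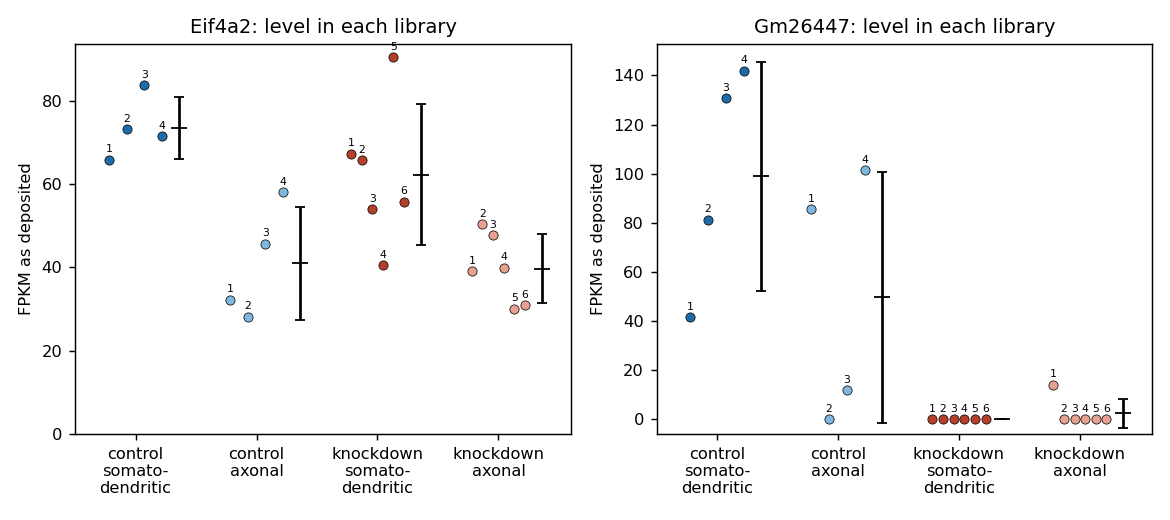
FPKM of Eif4a2 (left) and Gm26447 (right) in each library, numbered by replicate, with the mean and SD of each group as bars (n = 4 control and 6 knockdown libraries per compartment). Gm26447 was listed at 0 in 11 of 12 knockdown libraries, whereas Eif4a2 was present in all 20 libraries between 28.2 and 90.5 FPKM.

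Gm24201, Gm24616 and Snora81 were near the limit of detection. Gm24201 was at 28.6, 0, 10.8 and 14.6 FPKM in control somatodendritic libraries 1 to 4, at 41.8 FPKM in control axonal replicate 4, and at 0 in the other 3 control axonal and all 12 knockdown libraries. Gm24616 was above 0 in 4 libraries, at 16.6 and 37.6 FPKM in control axonal replicates 1 and 4, at 9.98 FPKM in control somatodendritic replicate 3 and at 13.1 FPKM in knockdown axonal replicate 1. Snora81 was above 0 only in control axonal replicate 3, at 11.5 FPKM. None of these 9 values rested on more than 1.32 implied fragments, and a value of 0 for them cannot be told from a level below the depth of the library.

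The host transcript was found in every library, with or without small RNAs. Eif4a2 was at 65.9, 73.2, 83.7 and 71.6 FPKM in control somatodendritic libraries 1 to 4 (mean 73.6 ± 7.45 SD, n = 4). In knockdown somatodendritic libraries it was at 40.6 FPKM at the lowest, 60.8 at the median and 90.5 at the highest (mean 62.3 ± 16.8 SD, n = 6). The groups overlapped, and knockdown replicate 5, with the highest deposited Eif4a2 level of all 20 libraries, had none of the 4 small RNAs. Its relative depth was only 0.256, and its Eif4a2 level rested on 4.07 implied fragments. Scaled over 20 libraries that level was 68.1 FPKM, below the 78.0 FPKM of control somatodendritic replicate 3.

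Control axonal libraries 1 to 4 had 32.2, 28.2, 45.7 and 58.0 FPKM of Eif4a2 (mean 41.0 ± 13.6 SD, n = 4), and knockdown axonal libraries 30.1 FPKM at the lowest, 39.6 at the median and 50.4 at the highest (mean 39.7 ± 8.34 SD, n = 6). In these deposited values the 6 knockdown libraries lay within the range of the 4 controls. Scaled over 20 libraries, knockdown axonal libraries were at 31.8, 57.2, 34.6, 39.5, 31.8 and 33.3 FPKM. Control axonal libraries then ran from 38.6 to 76.1 FPKM, so that the groups overlapped only in part. After scaling of the libraries and on the log2(FPKM + 1) scale, Eif4a2 was 0.48 (SE 0.197) lower upon knockdown in the somatodendritic and 0.53 (SE 0.356) lower in the axonal compartment, beside medians of all genes tested of -0.13 and -0.17. Both depended on the scaling, since the deposited values gave -0.27 beside a median of 0.04 and -0.02 beside a median of 0.23. Relative to the median of all genes the difference was -0.35 scaled and -0.31 deposited for cell bodies, and -0.36 and -0.25 for axons. Eif4a2 values rested on 11.9 to 23.0 implied fragments in control somatodendritic libraries and on 0.101 to 8.17 in the other 16.

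Set against each other in each library, the 4 small RNAs together amounted to 70.0 to 157 FPKM in control somatodendritic libraries, or 1.06 to 2.19 times the FPKM of Eif4a2. In control axonal libraries 1 to 4 the sum was 102, 0, 23.4 and 181 FPKM, which is 3.16, 0, 0.513 and 3.12 times the host. The lowest host level of all, 28.2 FPKM in control axonal replicate 2, came with no small RNA, but replicate 1, with a host level of 32.2 FPKM, had the highest ratio of small RNA to host. Gm26447 made up 50.8% to 100% of the sum wherever the sum was above 0.

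At least 1 of the 4 small RNAs was above 0 in 8 libraries, namely in 4 of 4 control somatodendritic, 3 of 4 control axonal, 0 of 6 knockdown somatodendritic and 1 of 6 knockdown axonal libraries. Eif4a2 had a median of 61.9 FPKM (range 32.2 to 83.7) in these 8 libraries and of 49.0 FPKM (range 28.2 to 90.5) in the other 12, of which 11 were knockdown libraries, so that this split mostly repeats the one by which the genes were selected. Among the 8 controls, the sum was 0 at the lowest host level of 28.2 FPKM and 152 FPKM at the highest of 83.7 FPKM, but in between it was 102 FPKM at 32.2, 181 FPKM at 58.0 and 81.2 FPKM at 73.2 FPKM of the host.

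**Figure D3:**
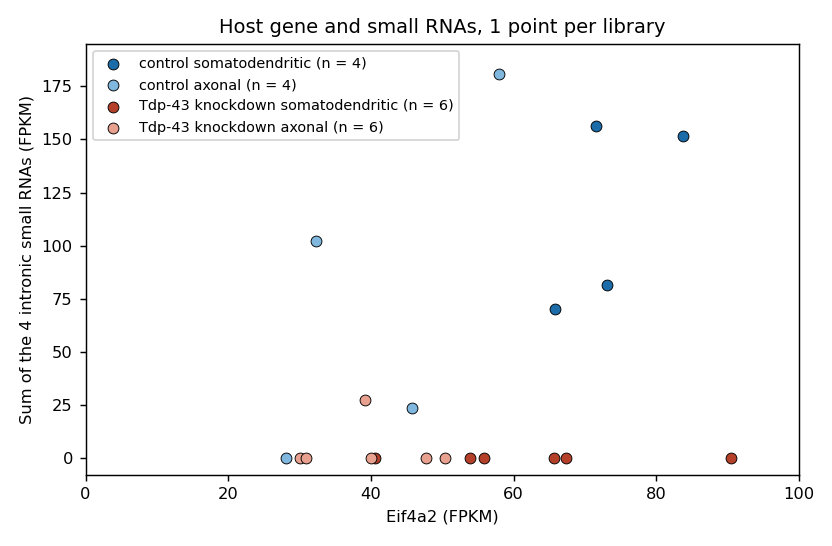
Sum of the FPKM of Gm24201, Snora81, Gm26447 and Gm24616 against the FPKM of Eif4a2, 1 point per library and coloured by group. The knockdown libraries lie on or near the line of 0 across host levels from 30.1 to 90.5 FPKM, and 7 of the 8 control libraries lie above it.

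Between compartments, the host could be compared over both conditions and Gm26447 in control libraries only. Of 14062 genes tested with limma over both conditions, 11.7% passed an adjusted p of 0.05, and Eif4a2 did not, being 0.33 lower in axons on the log2 scale (SE 0.187, unadjusted p = 0.0871, adjusted p = 0.274 in limma). In control libraries, Gm26447 was 1.83 lower in axons, with overlapping groups, and 0.31 lower without control axonal replicate 2, the library listed at 0. It is given no test, since the fit takes its spread from knockdown libraries too, of which 11 of 12 were at 0. Averaged over both conditions the difference of Gm26447 was -0.61. The knockdown libraries enter this average with equal weight, all at 0 except knockdown axonal replicate 1 at 14.1 FPKM. Gm24201 and Gm24616 are given no test, since they passed the filter only through the controls, with 4 libraries above 0 for each RNA. Snora81 had a mean under 1 FPKM and did not enter the fit.

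The result for Eif4a2 depended on how libraries were put on 1 scale. In the deposited FPKM, all 4 control axonal libraries (28.2 to 58.0) lay below all 4 control somatodendritic libraries (65.9 to 83.7), which held for 18.7% of the 14062 genes. The axonal mean was 55.8% of the somatodendritic mean in control and 63.7% in knockdown libraries (30.1 to 50.4 against 40.6 to 90.5 FPKM, overlapping). Exact two-sided permutation tests of these means gave p = 0.0286 for 4 against 4 libraries, the smallest p possible, and p = 0.0108 for 6 against 6. With scaled values the axonal mean was 83.7% of the somatodendritic mean in control and 76.8% in knockdown libraries. The same exact permutation tests then gave p = 0.314 and p = 0.102. In limma the deposited values gave a difference of -0.75 (SE 0.194, adjusted p = 0.0106), but the median of all genes then also shifted to -0.35. Relative to the median of all genes Eif4a2 was lower by 0.29 with scaled and by 0.40 with deposited values.

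The paralog ratio within a library does not depend on scaling. Eif4a1 (ENSMUSG00000059796, chr11:69666936-69672423), the paralog, was at 67.5 to 86.9 FPKM in control somatodendritic and 65.5 to 127 FPKM in control axonal libraries. The ratio of Eif4a2 to Eif4a1 was 0.893, 1.08, 0.963 and 0.888 in control somatodendritic libraries 1 to 4. It was 0.290, 0.222, 0.421 and 0.886 in control axonal libraries 1 to 4. Control axons thus held less Eif4a2 per Eif4a1 in all 4 libraries, although replicate 4 reached almost the level of the cell bodies.

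In knockdown libraries the ratio was 0.498 to 0.999 (median 0.652) for cell bodies and 0.269 to 0.735 (median 0.517) for axons, and these ranges overlapped. On the log2 scale the axonal minus somatodendritic difference of the ratio was -1.28 in control (exact permutation p = 0.0286, two-sided) and -0.47 in knockdown libraries (exact permutation p = 0.0931). This ratio was chosen after its values had been seen. Over the 10 exact tests of Eif4a2, Eif4a1 and their ratio in both conditions, the smallest adjusted p was 0.0714, so that none passed after Benjamini-Hochberg adjustment. With all genes fitted together, Eif4a1 was 0.53 higher in axons (SE 0.181, adjusted p = 0.0618 in limma) and in control axons 0.96 higher (SE 0.280, adjusted p = 0.0765, where 2.10% of all genes passed), relative to a median of all genes of -0.04 and -0.03. Both lay near the threshold: they stayed short of it in 23 and 25 of 29 alternative settings, with adjusted p from 0.00804 to 0.753 and from 0.00797 to 0.527 in limma.

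**Figure D4:**
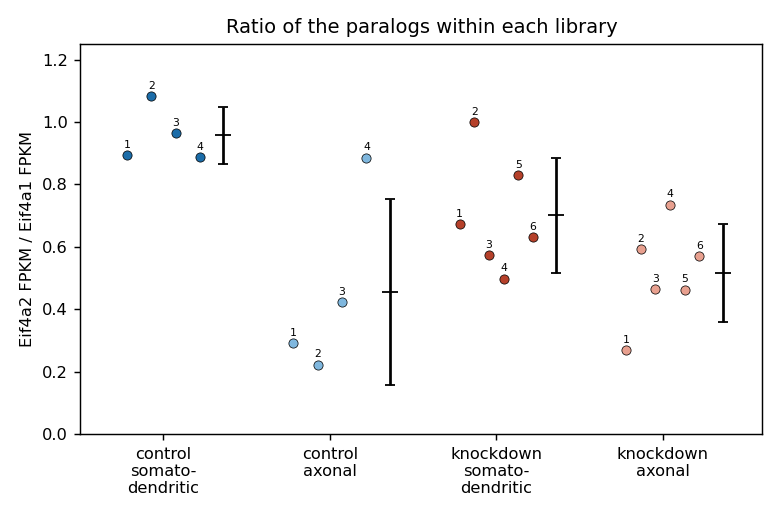
Ratio of Eif4a2 FPKM to Eif4a1 FPKM in each library, numbered by replicate, with the mean and SD of each group (n = 4 control and 6 knockdown libraries per compartment). Control somatodendritic libraries lie between 0.888 and 1.08 and control axonal libraries between 0.222 and 0.886.

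The axonal libraries differed from the cell bodies in their markers too. The summed FPKM of 5 fibroblast and meningeal markers was 11.9 to 47.9 in control axonal against 1.43 to 11.9 in control somatodendritic libraries, and 11.4 to 81.1 against 0 to 13.9 in knockdown libraries, with 4 of 5 markers above 0 in axons and Lum at 0. The collagens carried this sum, of 3 tested markers 1 passed, and Dcn was as low as 0.607 FPKM on average in control axonal and 0.826 FPKM in control somatodendritic libraries. Col1a1, a collagen chain of fibroblasts, was the one that passed, 3.49 higher in axonal libraries on the log2 scale (SE 0.439, adjusted p = 2.93e-05 in limma). Of 5 astrocyte and progenitor markers 1 passed, Gfap, which was 1.58 lower (SE 0.484, adjusted p = 0.0363 in limma), while the others ranged from -0.88 (Aqp4) to 0.33 (Sox2). Of 4 tested oligodendrocyte and Schwann markers 0 passed in limma, and their median was -1.18. At an unadjusted p under 0.05, 3 of the 4 were lower in axons, as were 1890 of all 14062 genes. Of 4 nuclear RNAs 1 passed, Malat1, which was 0.51 higher in axons (SE 0.161, adjusted p = 0.0414 in limma). Malat1 was at 312 to 489 FPKM in control axonal and 588 to 867 FPKM in control somatodendritic libraries. In knockdown libraries it was at 1041 to 1800 FPKM in axonal and 478 to 959 FPKM in somatodendritic ones. The part of such differences in the ratio of Eif4a2 to Eif4a1, or in the snoRNA values, was not tested. In these bulk libraries, fewer cells of a type and less RNA per cell cannot be told apart.

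The knockdown differences of Eif4a2 in the 2 compartments are again a description. As a difference of differences, axonal minus somatodendritic, they came to -0.07 (SE 0.374). Its sign changed with the scaling, and the SE leaves room for a larger fall in either compartment.

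The snoRNAs of the paralog were also mostly listed at 0 upon knockdown. Gm22988, Gm25835 and Gm24029 lie within Eif4a1 on the − strand of chromosome 11, in its introns 4, 5 and 9. Gm22988 was at 16, 35, 8.85 and 17.5 FPKM in control axonal libraries 1 to 4 and listed at 0 in all 6 knockdown axonal libraries. In somatodendritic libraries it was at 0, 15.7, 28.6 and 12.7 FPKM in controls and again at 0 in all 6 knockdown libraries. Its control axonal values rested on 0.282 to 1.23 implied fragments, and no test is given because its mean passed the filter only through the controls. Gm25835 was above 0 in 5 of 8 control and 1 of 12 knockdown libraries, the latter being axonal replicate 1 at 12.6 FPKM.

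Gm24029 was at 2.37, 0, 14.4 and 18.3 FPKM in control axonal libraries 1 to 4 and at 0 in the other 16. These values rested on 0.5 implied fragments at most and carry no comparison. At both loci knockdown axonal replicate 1 was the only knockdown library in which any of these 7 RNAs was found.

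Across all snoRNA genes, far fewer were found in knockdown libraries. The number above 0 was 73 to 133 in control somatodendritic, 48 to 75 in control axonal, 7 to 36 in knockdown somatodendritic and 5 to 24 in knockdown axonal libraries. Among libraries of relative depth 0.5 or more, it was 22 to 36 in 4 knockdown somatodendritic libraries of depth 0.526 to 0.698, and 15 to 24 in 3 knockdown axonal libraries of depth 0.705 to 0.761. Every control library, down to a depth of 0.530, had more. The number of all genes above 0 was alike in these libraries, 13594 to 15047 in knockdown and 12340 to 15453 in control. Of 4349 other genes that span under 200 bases, 73 to 102 were above 0 in control and 46 to 63 in these knockdown libraries, so that the groups did not overlap here either but lay closer together than for snoRNAs. The part of these lower numbers in the values of Gm26447 was not tested.

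**Figure D5:**
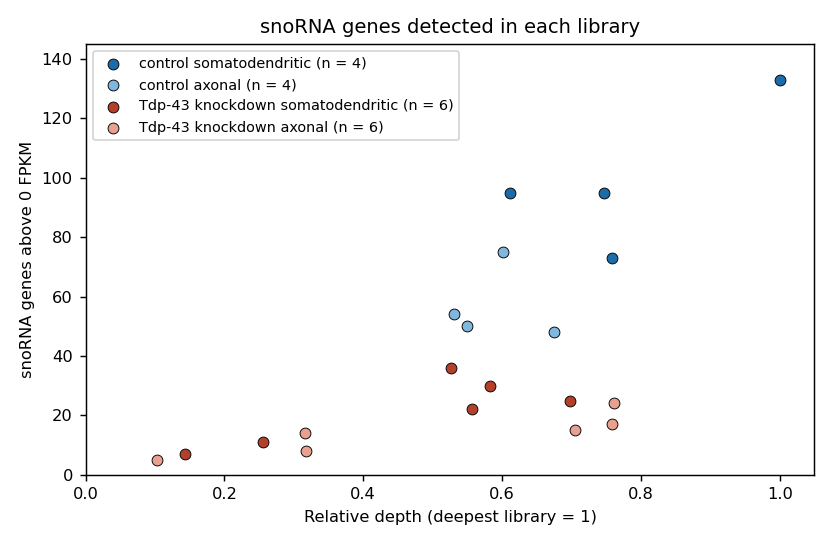
Number of snoRNA genes above 0 FPKM against the relative depth of the library, 1 point per library and coloured by group. At depths above 0.5, the 8 control libraries have 48 to 133 and the 7 knockdown libraries 15 to 36 snoRNA genes above 0.

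Of the 27 snoRNA genes above 0 in every control somatodendritic library, 6 were listed at 0 in every knockdown somatodendritic library, Gm26447 among them, and 2 were above 0 in all of them. Of all 11870 genes above 0 in every control somatodendritic library, 31 were listed at 0 in every knockdown one. Of 54 such genes that span under 200 bases, a set that includes snoRNA genes, 8 were listed at 0 in every knockdown one. These sets were not matched for level. The 6 are not all separate RNAs, since Gm24428 and Gm26135, and likewise Gm24826 and a U3 gene, had the same values in most libraries and may share reads.

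Proteins that bind snoRNAs, and long noncoding hosts of snoRNAs, were looked at beside these RNAs. Of 10 tested genes for snoRNP proteins, 0 passed an adjusted p of 0.05 in either compartment upon knockdown in limma, where 0.974% of 13762 genes passed for cell bodies and 0.401% of 13958 for axons. At an unadjusted p under 0.05, 1 was lower in the somatodendritic compartment, Dkc1, which encodes dyskerin, the pseudouridine synthase of box H/ACA particles (-1.32, SE 0.570, adjusted p = 0.323), and 0 in the axonal one. Of all genes, 9.22% were lower at that threshold for cell bodies and 6.46% for axons. With deposited FPKM most genes at that threshold were instead higher, 1276 of 2024 for cell bodies and 999 of 1372 for axons. The median of the 10 was -0.07 and -0.15, beside -0.13 and -0.17 for all genes. Of the noncoding hosts, 0 of 6 passed for cell bodies and 0 of 8 for axons, and 1 and 2 were lower at an unadjusted p under 0.05. Snhg1 was at 2.65 to 3.77 FPKM in control somatodendritic libraries and listed at 0 in 4 of 6 knockdown ones, with a difference of -1.58 (SE 0.481, adjusted p = 0.146 in limma). The medians of the tested hosts were -1.06 and -0.48.

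Among 20 tested genes of translation initiation other than Eif4a2, 2 were higher and 1 lower in axons, 3 of 20 beside the 11.7% of all genes that passed. Eif4ebp1, whose product holds eIF4E away from eIF4G, was at 8.37 to 41.2 FPKM in control axonal and 1.41 to 5.6 FPKM in control somatodendritic libraries and was 2.82 higher on the log2 scale over both conditions (SE 0.544, adjusted p = 0.00183 in limma). Pabpc1, the poly(A)-binding protein, was 0.51 higher (SE 0.167, adjusted p = 0.0482), and Eif4g2, an initiation factor of cap-independent translation, was 0.36 lower (SE 0.120, adjusted p = 0.0498). Across alternative settings only Eif4ebp1 passed in all. Eif4a3, the eIF4A of the exon junction complex, differed by 0.08 (SE 0.181, adjusted p = 0.824), and this turned to -0.33 with deposited values. The median of the list was 0.19, beside -0.04 for all genes.

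Upon knockdown, 0 of the 20 passed in either compartment in limma, with 4 higher and 0 lower at an unadjusted p under 0.05 for cell bodies, where 4.59% of all genes were higher, and 2 higher and 1 lower for axons, where 2.14% were higher. The one lower was Eif4a1 in axons (-0.85, SE 0.341, adjusted p = 0.484). Eif4g2 was higher upon knockdown, by 0.42 (SE 0.0920, adjusted p = 0.0523) in the somatodendritic and 0.87 (SE 0.268, adjusted p = 0.286) in the axonal compartment. In the somatodendritic compartment it passed with deposited FPKM (adjusted p = 0.00922), with a filter of 5 FPKM (0.0377) and with array weights (0.0251 in limma), and not in the other 16 of 19 alternatives. The list medians were -0.02 and 0.10.

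Neighbouring genes on the chromosome were scarcely expressed. Kng1, a kininogen gene upstream of Eif4a2, was above 0 in 2 libraries, and Rfc4, a replication factor C subunit whose 3′ end overlaps that of Eif4a2 on the other strand, was above 0 in 8 libraries at up to 30.9 FPKM in the shallowest. Over the 20 libraries, the genes whose scaled log2 levels ran most like Eif4a2 among 8838 genes averaging 5 FPKM or more were Fxyd6 (Pearson r = 0.867), Atxn10 (0.813), Tubb2b (0.788), Atp5c1 (0.778) and Efna3 (0.778). For Gm26447 they were Gm24428 (0.904) and Gm26135 (0.904), a pair with almost the same values as each other, and Hnrnpa1 (0.879). These coefficients describe libraries that share compartment, condition and depth.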

How the data were processed

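Gene FPKM with 95% intervals for 39174 genes in each of 20 libraries were computed and deposited by the authors, per their processing notes with Cufflinks 2.2.1 on GRCm38 after quality control with FastQC 0.10.1; strandedness is not given in the sources used here. FPKM carry no read totals. Taking the distance from FPKM to the upper bound as 2 SD of a count yields implied fragments, which also fall with uncertain assignment to transcripts; intervals cover counting error only, and amplified fragments are not independent molecules. Relative depth was the median of implied fragments per FPKM over 680 genes with more than 3 fragments in every library. Values at or under 0.001 FPKM count as listed at 0.

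Libraries were scaled by median-of-ratios factors (from all 20 libraries for comparisons of compartments, from 10 for knockdown), set to log2(FPKM + 1), kept at a mean of at least 1 FPKM and tested with limma 3.58.1 in R 4.3.3 with a trend and Benjamini-Hochberg adjustment over all genes tested. The log scale understates changes of low genes. The procedure was tested on simulated data. Single values were compared by exact two-sided permutation with scipy 1.17.1. Tables and figures used Python 3.11.15, pandas 2.3.3, numpy 2.4.6 and matplotlib 3.10.9, and sequences were read and aligned with Biopython 1.88.

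Members and gene lists were chosen with earlier results of these data known. Named are the 5 members, Tardbp, Eif4a1, Eif4a3, snoRNA genes within Eif4a1, 1 neighbour on each side, at most 3 genes of lowest p per list and comparison, and the 5 and 3 genes most like Eif4a2 and Gm26447. Alternatives were deposited FPKM, quantile normalization, pseudocounts of 0.1 and 5, other filters, array weights, a replicate block and leaving out each library. A fit on libraries of relative depth 0.5 or more and the exact tests were added after seeing the data. Other assays of the study were not analysed here.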

Additional observations from a re-analysis of the deposited data

Results flagged for a closer look

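In 5 of 17 groups of 4 or 6 values tested, 1 library stood apart by Dixon's criterion, which chance meets in about 1 group in 20 where values vary continuously. Here it was each time the only library above 0, which meets the criterion by construction, so that this rate does not apply. These were Gm26447 in knockdown axonal replicate 1 (14.1 FPKM) and Gm24616 in the same library (13.1 FPKM), Gm24201 in control axonal replicate 4 (41.8 FPKM), Gm24616 in control somatodendritic replicate 3 (9.98 FPKM) and Snora81 in control axonal replicate 3 (11.5 FPKM). Knockdown axonal replicate 1, which has 2 of the 5 values, is the library with Tardbp at 33.2 FPKM, a relative depth of 0.761 and 24 snoRNA genes above 0, the most among knockdown axonal libraries. Whether these facts are connected was not tested.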

How the results depend on the processing

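Replicate numbers did not pair the libraries: the correlation of deviations was -0.04 to 0.04 over 10 axonal and somatodendritic pairs of 1 number, and 1 of 10 libraries matched its own number best. Counts of genes past the adjusted threshold moved as follows. Compartments over both conditions (1642 genes): 2504 with array weights. Compartments in control (295): 1253 with array weights, 579 with deposited FPKM, 1058 at relative depth 0.5 or more, 181 and 483 with pseudocounts of 0.1 and 5, 120 with the replicate block and 96 to 509 leaving out 1 library (117 and 165 without control axonal replicates 1 and 2, 123, 96 and 126 without control somatodendritic replicates 1, 2 and 3, 509 without knockdown axonal replicate 5). Compartments in knockdown (753): 370 at depth 0.5 or more, 495 with no filter, 400 with the replicate block and 445 to 1232 leaving out 1 library (1232 and 467 without knockdown axonal replicates 4 and 6, 466, 475 and 445 without knockdown somatodendritic replicates 1, 2 and 5). Knockdown in the somatodendritic compartment (134): 432 with array weights, 233 with deposited FPKM, 212 with a pseudocount of 5, 18 with the replicate block and 58 to 198 leaving out 1 library (76, 71, 58 and 80 without control replicates 1 to 4). Knockdown in axons (56): 87 with array weights, 30 with a pseudocount of 0.1, 35 with the replicate block and 37 to 70 leaving out 1 library (37 without control replicate 1). With deposited FPKM, 481 genes were higher and 1982 lower in axons over both conditions, against 860 and 782 with scaling, 99 higher and 480 lower in control, against 202 and 93, and in the somatodendritic compartment 150 were higher and 83 lower upon knockdown, against 30 and 104.

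Eif4a2 between compartments passed only with deposited FPKM (-0.75); its sign held in all 29 alternatives and its range leaving out 1 library was -0.41 to -0.25. Gm26447 averaged over both conditions ranged from -1.03 to 0.15 leaving out 1 library, the last without control axonal replicate 2, and in control libraries from -2.68 to -0.31. The difference of the Eif4a2 knockdown effect turned to 0.26 with deposited FPKM, 0.000891 with quantile normalization, 0.0527 with array weights and -0.24 to 0.0876 leaving out 1 library (0.0876 without control axonal replicate 4, 0.03 without control axonal replicate 3 and 0.03 without knockdown somatodendritic replicate 5). The axonal difference of Gm26447 upon knockdown, -3.83, was -5.76 with a pseudocount of 0.1 and -2.51 at the other end of the settings. Leaving out 1 library it ranged from -5.33 to -3.02. Eif4a2 in control axons averaged 57.3 FPKM after scaling over 20 libraries. Eif4a3 turned to -0.33 with deposited FPKM and -0.0845 with quantile normalization; Eif4a1 in knockdown axons (0.09) turned to -0.16 and -0.0475 with the same settings and ranged from -0.0390 (without knockdown axonal replicate 1) to 0.169 leaving out 1 library. The log2 ratio difference of Eif4a2 to Eif4a1 was -1.67 to -1.001 in control leaving out 1 library, at an exact permutation p = 0.0571, the smallest that 3 against 4 libraries allow. In knockdown it was -0.58 to -0.29 (exact permutation p = 0.0303 to 0.186), below 0.05 without axonal (-0.58) or somatodendritic (-0.56) replicate 4. The call of Eif4g2 between compartments held in 10 of 29 alternatives. The cause of these shifts was not tested. Depth limits all 4 small RNAs: Gm26447 rested on at most 10.6 implied fragments, was at 0 in 1 control library too, and its absence cannot be shown in knockdown libraries of relative depth down to 0.103 and 0.144.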
